A study of Homo sapiens with 6 samples.

Results

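The genes that drive a cell from G1 into S phase were followed in DU145 cells, a human metastatic prostate cancer line, by 10 genes chosen by name: the D-type cyclins CCND1, CCND2 and CCND3, their kinases CDK4 and CDK6, the E-type cyclins CCNE1 and CCNE2, their kinase CDK2, the retinoblastoma gene RB1 and the transcription factor gene E2F1. All 10 were found by symbol among the 27381 genes of the deposited table. By the labels, 2 libraries came from DU145 cells given a scrambled sgRNA (Scr), 2 from cells with a CD24 knockout (CD24 KO) and 2 from cells with an RCC2 knockout (RCC2 KO). The study's methods describe the knockouts as clones made with Cas9 and paired sgRNAs from a plasmid that also carries GFP, with the GFP-positive cells sorted, and the control cells as clones that received Cas9 with the scrambled sgRNA. Cas9, sorting on GFP and growth from clones were thus described for all 3 groups, and which clones were sequenced is not stated in the labels. Each condition has 1 value per gene, in FPKM, fragment numbers divided by transcript length and by library size, so levels can be set side by side across genes. The libraries of a condition were already combined, and the RCC2 KO column carries the name of the first RCC2 KO library and may stand for that library alone. No SD, p-value or replicate check can be given for any difference below, and a 2-fold difference stands in place of a test.

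Progression through G1 is driven by cyclins, the regulatory subunits of the cyclin-dependent kinases. D-type cyclins are made in response to growth signals and activate CDK4 and CDK6, and E-type cyclins then activate CDK2. Both kinds of kinase phosphorylate the RB protein, which otherwise holds the E2F transcription factors and keeps their target genes for DNA synthesis silent, and CCNE1, CCNE2 and E2F1 are themselves E2F targets. DU145 cells are known to lack a functional RB protein, so the RB1 RNA measured here says nothing of RB function.

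The table places the deposited coordinates on a build that is not named. Only 1 of the 10 genes overlapped its GRCh38 position in GENCODE 29, and the coordinates were read as hg19. The intervals are those of the table, which joins overlapping genes into 1 locus (CDK4 with TSPAN31, CCNE2 with INTS8, RB1 with LPAR6, CCND2 with CCND2-AS1 and CDK6 with LOC101927497), so they can be wider than the gene. The epithelial markers KRT8 and KRT18 were at 336 and 293 FPKM in Scr, and EPCAM and CDH1 at 58.9 and 27.9 FPKM. KLK3, a marker of luminal prostate cells, was listed at 0 in every column, and all 7 markers of leukocytes, endothelial cells and fibroblasts were under 1 FPKM in every column. Neither targeted gene had less RNA under its own knockout label. CD24 RNA was higher under its own knockout label (309 FPKM) than under Scr (93.2 FPKM), with 214 FPKM under the RCC2 KO label. RCC2 RNA was likewise not lower under its own label (41.8 FPKM against 37.8 FPKM under Scr), and was lowest under the CD24 KO label, with 14.2 FPKM. All directions that follow are therefore those of the labels, which these RNA levels do not bear out. The study reports checks of its knockout clones of this line by Sanger sequencing, Western blot and flow cytometry. Protein was not measured in the data used here.

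The stretch of 250 bases before the gene start shows where letters of the E2F site lie in front of these genes. The sequences are from RefSeq on GRCh38.p14 and run 5′ to 3′ along the gene's own strand, with matches in capitals. The letters searched, on both strands, were TTTCCCGC, TTTCGCGC, TTTGCCGC and TTTGGCGC, and no other motif was searched. E2F1, CCNE1 and CDK4 are shown as members of the G1/S group that differ in these letters. MCM3, a subunit of the replicative helicase, and TYMS, the thymidylate synthase, are shown as E2F target genes that were at least 2-fold lower under the CD24 KO label and hold a match.
E2F1 (chr20:33686386-33686635, minus strand): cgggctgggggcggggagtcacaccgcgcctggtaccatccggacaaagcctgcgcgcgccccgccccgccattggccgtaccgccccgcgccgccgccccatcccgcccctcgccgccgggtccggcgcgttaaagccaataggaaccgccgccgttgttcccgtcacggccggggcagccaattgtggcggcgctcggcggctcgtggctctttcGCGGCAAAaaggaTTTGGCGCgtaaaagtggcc
CCNE1 (chr19:29811741-29811990, plus strand): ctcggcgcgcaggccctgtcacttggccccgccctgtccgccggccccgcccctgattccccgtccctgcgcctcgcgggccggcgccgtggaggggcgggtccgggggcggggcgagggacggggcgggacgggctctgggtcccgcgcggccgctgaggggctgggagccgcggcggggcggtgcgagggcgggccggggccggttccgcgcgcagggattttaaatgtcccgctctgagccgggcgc
CDK4 (chr12:57752311-57752560, minus strand): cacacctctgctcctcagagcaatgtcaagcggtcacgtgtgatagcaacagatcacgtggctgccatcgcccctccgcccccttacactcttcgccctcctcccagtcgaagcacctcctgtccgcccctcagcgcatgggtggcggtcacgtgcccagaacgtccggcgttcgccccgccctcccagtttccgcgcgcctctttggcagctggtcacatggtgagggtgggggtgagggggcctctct
MCM3 (chr6:52284743-52284992, minus strand): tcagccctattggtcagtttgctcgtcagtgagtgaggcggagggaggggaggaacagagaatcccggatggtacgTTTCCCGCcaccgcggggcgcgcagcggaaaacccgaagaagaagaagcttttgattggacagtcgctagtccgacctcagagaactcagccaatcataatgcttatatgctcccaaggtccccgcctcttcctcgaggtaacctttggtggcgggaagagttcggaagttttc
TYMS (chr18:657403-657652, plus strand): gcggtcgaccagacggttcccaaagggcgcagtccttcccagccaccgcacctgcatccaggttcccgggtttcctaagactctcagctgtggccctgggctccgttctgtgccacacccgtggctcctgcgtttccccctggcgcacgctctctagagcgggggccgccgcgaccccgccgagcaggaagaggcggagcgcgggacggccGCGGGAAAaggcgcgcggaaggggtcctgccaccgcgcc
In E2F1 there were 2 matches that do not overlap, starting 33 and 20 bases before the gene start. MCM3 and TYMS had 1 match each, starting 174 and 39 bases before the start. The windows of CCNE1 and CDK4 held none of these letters, which says nothing of the factor's binding there. CCND3, CDK6 and RB1 also had entries, without a match. CCND1, CCND2, CCNE2 and CDK2 had no entry. Of 27305 symbols with an entry, 928 (3.40%) held a match, against 11 of 23 (47.8%) among the E2F target genes described below and 3 of 7 among the other E2F family and DP genes. In the other lists described below, 2 of 5 CDK activators and 2 of 8 pocket protein and MuvB genes held a match. So did 1 of 6 later cyclins and proliferation markers, but 0 of 6 CDK inhibitors and 0 of 7 ubiquitin ligase parts. A match is a description of the letters and not a shown binding site.

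CCND1, the main D-type cyclin of most epithelial cells, was the most abundant of the 10 genes in every column. It lies on chromosome 11 from 69455873 to 69469242 and was at 154 FPKM with Scr, 110 under the CD24 KO label and 181 under the RCC2 KO label. The Scr value was higher than that of 96.8% of the genes compared, or equal to it, so CCND1 was among the abundant RNAs of these cells. CCND3, on chromosome 6 from 41902671 to 42016632, was at 19.8 FPKM with Scr, 12.6 under the CD24 KO label and 18.0 under the RCC2 KO label. CCND2, on chromosome 12 from 4357933 to 4414522, was at 0.057, 0.14 and 0.027 FPKM in the same order. These CCND2 values lie too near 0 for a fold to be given. Of the summed FPKM of the D-type cyclins, CCND1 made up 88.6% in Scr, 89.6% under the CD24 KO label and 90.9% under the RCC2 KO label, and CCND3 made up 11.4%, 10.3% and 9.07%. These shares do not depend on how a column was scaled, and the D-type cyclin RNA of DU145 was thus mostly CCND1 under every label.

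CDK4, on chromosome 12 from 58138772 to 58146230, was at 41.5 FPKM with Scr, 28.96 under the CD24 KO label and 39.5 under the RCC2 KO label. CDK6, its close relative, on chromosome 7 from 92234235 to 92546501, was at 1.61, 1.21 and 1.40 FPKM, near the minimum of 1 FPKM used for comparison. CDK4 accounted for 96.3%, 96.0% and 96.6% of the sum of both kinases, so the RNA for the partners of the D-type cyclins was nearly all CDK4 in each column. CDK2, on chromosome 12 from 56360553 to 56366573, was at 67.3 FPKM with Scr, 49.5 under the CD24 KO label and 71.6 under the RCC2 KO label, which made it the second most abundant of the group.

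CCNE1, on chromosome 19 from 30302901 to 30315224, was at 11.5 FPKM with Scr, 8.12 under the CD24 KO label and 10.2 under the RCC2 KO label. CCNE2, on chromosome 8 from 95835518 to 95907482, was at 9.69, 7.10 and 12.2 FPKM. The E-type cyclins were thus of like abundance, and their order differed between columns. CCNE1 made up 54.2% of their sum in Scr and 53.4% under the CD24 KO label, but 45.6% under the RCC2 KO label. The table joins the locus of CCNE2 to that of INTS8, an integrator subunit gene at 44.1, 43.9 and 37.7 FPKM, and fragments could have been divided between them.

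RB1, on chromosome 13 from 48877883 to 49056026, was at 16.4 FPKM with Scr, 21.1 under the CD24 KO label and 18.9 under the RCC2 KO label. Of the 9 genes at or above 1 FPKM it was the only one with its highest value under the CD24 KO label. E2F1, on chromosome 20 from 32263292 to 32274210, was at 14.9 FPKM with Scr, 9.60 under the CD24 KO label and 15.3 under the RCC2 KO label, lowest under the CD24 KO label and close together under the other labels. The order of the 10 genes in Scr was CCND1, CDK2, CDK4, CCND3, RB1, E2F1, CCNE1, CCNE2, CDK6 and CCND2. Under both knockout labels, RB1 stood above CCND3, and under the RCC2 KO label, CCNE2 stood above CCNE1. Without separate libraries it cannot be said which neighbours in this order differ beyond their spread.

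**Figure D1:**
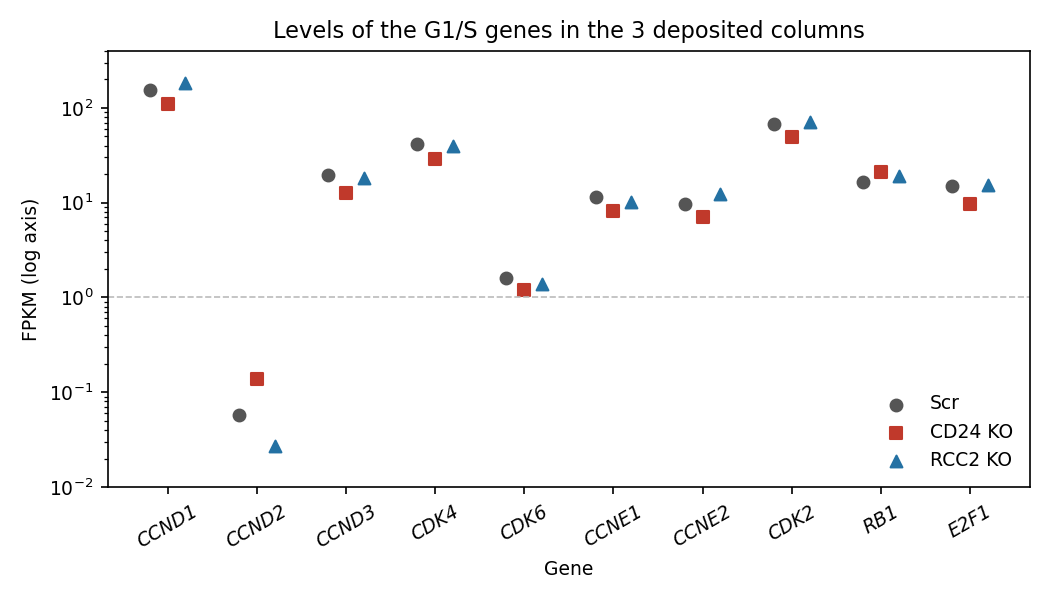
FPKM of the 10 genes (log axis) in the 3 deposited columns, 1 point per gene and condition with no replicate error. The dashed line marks 1 FPKM. CCND1 is highest in each column, CCND2 lies below the line in each, and the CD24 KO point is lowest for 8 of the 9 genes above the line, with RB1 the exception.

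The libraries labelled CD24 KO were first compared with Scr, among 12822 genes with at least 1 FPKM in at least 1 column, as differences of log2(FPKM + 1), a scale that understates the change of low genes. Of the 10 genes, 9 were compared and CCND2 was under the minimum. None of the 9 was 2-fold higher or lower, where 5.69% of all genes compared were (2.67% higher and 3.03% lower). Below that size, 8 of the 9 genes were lower than Scr and 1 was higher, while 52.9% of all genes were lower and 47.0% higher. Their median log2 difference was -0.45, against -0.034 over all genes. In bulk RNA, fewer cells in a phase of the cycle and less RNA per cell cannot be told apart. The D-type cyclins CCND1 and CCND3 had log2 differences of -0.48 and -0.61. CDK4 and CDK6 were at -0.51 and -0.24. The E-type cyclins CCNE1 and CCNE2 were at -0.45 and -0.40, and CDK2 at -0.43. E2F1 was at -0.58 and RB1 at 0.35. All 9 lay between percentiles 5 and 95 of all genes, so no single gene of the group stood at the edge of the distribution. At 1.5-fold, 1 of the 9 genes was lower (CCND3), against 11.6% of all genes, and none was higher, against 9.55%. E2F1 lay just inside that limit. Rescaling each column to the same sum shifted the median of all genes to 0.18, and relative to it the median of the 9 genes was -0.45. That rescaling also turned the split of 2-fold calls over all genes from 342 higher and 388 lower to 972 higher and 304 lower. The new sum was above the sum of each column, while the filter and pseudocount stayed at 1. Both thus weighed less after rescaling, and 14222 genes were compared in place of 12822. Other genes also differed under this label. The epithelial marker KRT8 was at 336 FPKM with Scr and 149 FPKM with CD24 KO. KRT18 was at 293 and 141 FPKM and EPCAM at 58.9 and 44.9 FPKM. CDH1 went the other way, at 27.9 and 52.6 FPKM. The proliferation marker MKI67 was at 74.3 and 32.2 FPKM. Their part in the result was not tested. The 7 markers of leukocytes, endothelial cells and fibroblasts summed to 0.459, 0.812 and 0.422 FPKM in the 3 columns, with 2 of the 7 listed at 0 throughout.

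The libraries labelled RCC2 KO were close to Scr for these genes. None of the 9 was 2-fold changed, against 1.20% of all genes (0.406% higher and 0.796% lower), and 5 were higher and 4 lower, where 49.3% of all genes were higher and 50.6% lower. The median log2 difference was 0.036, against -0.0036 over all genes. CCNE2 had the largest difference, at 0.30, higher than that of 92.0% of all genes. CCND1 was at 0.23 and RB1 at 0.19. CDK2 and E2F1 were at 0.089 and 0.036. CCND3, CDK4, CDK6 and CCNE1 were at -0.13, -0.071, -0.12 and -0.15. At 1.5-fold none of the 9 was called, against 5.27% of all genes, with 1.45% higher and 3.82% lower. The RCC2 KO and CD24 KO comparisons share the Scr values.

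The knockouts were also set against each other, which leaves Scr out. Under the RCC2 KO label, 8 of the 9 genes were higher than under the CD24 KO label and 1 was lower (RB1, at -0.15), where 51.6% of all genes were higher and 48.3% lower. None was 2-fold different, against 8.31% of all genes (515 higher and 551 lower). After rescaling to the same sum, 381 of 14222 genes were 2-fold higher and 1493 lower. Before rescaling, the median log2 difference of the 9 genes was 0.48, against 0.017 over all genes. CCND1, CCNE2 and E2F1, at 0.71, 0.70 and 0.62, were at least 1.5-fold higher under the RCC2 KO label, as were 13.8% of all genes, while none was 1.5-fold lower, against 14.1%. CDK2, CCND3 and CDK4 were at 0.52, 0.48 and 0.43, and CCNE1 and CDK6 at 0.30 and 0.12. All 9 genes kept their sign after median centring, quantile normalization and rescaling each column to the same sum, in each of the 3 comparisons. Another pseudocount or filter cannot turn the sign of a gene.

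**Figure D2:**
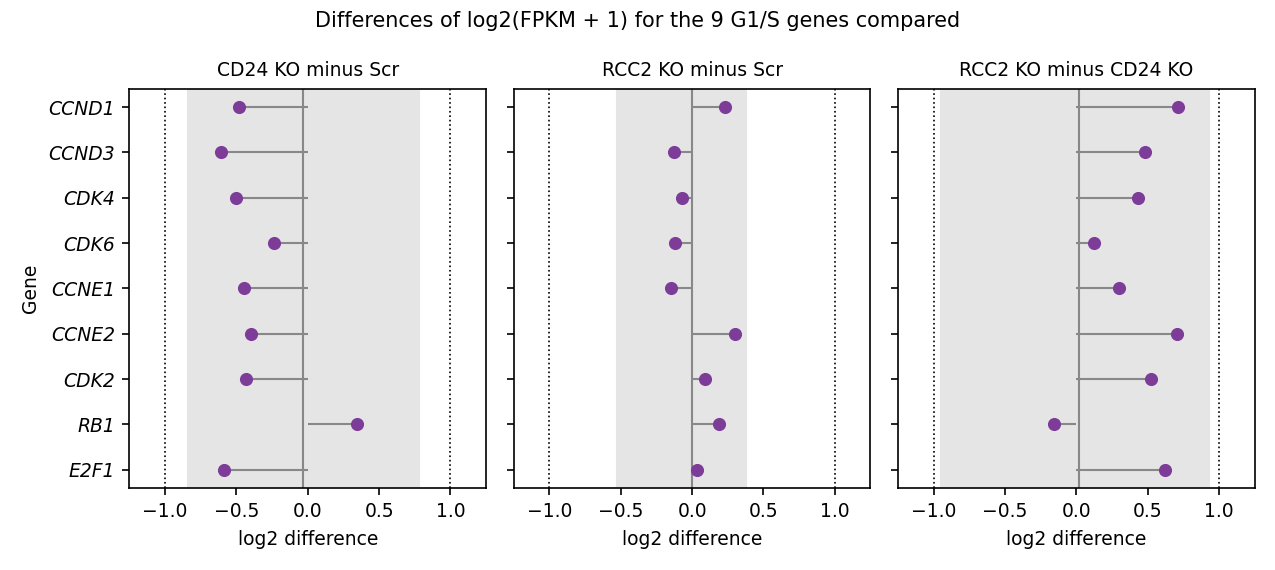
Differences of log2(FPKM + 1) of the 9 genes compared, 1 panel per comparison. The grey band spans percentiles 5 to 95 of all 12822 genes, the grey line their median, and the dotted lines the 2-fold minimum. All points lie inside the bands, 8 of 9 to the left in the first panel and 8 of 9 to the right in the third.

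Ratios within a column, chosen after the values had been seen, do not depend on scaling. The summed D-type cyclins were 4.03 times the sum of CDK4 and CDK6 in Scr, 4.06 times under the CD24 KO label and 4.86 times under the RCC2 KO label. CCNE1 and CCNE2 together were 0.314, 0.307 and 0.313 times CDK2. Cyclin and kinase RNAs were thus lower side by side under the CD24 KO label, and their ratios there were near those in Scr. RB1 was 1.10 times E2F1 in Scr, 2.20 times under the CD24 KO label and 1.24 times under the RCC2 KO label. CDK4 was 0.510 times CDKN2A in Scr, 0.207 times under the CD24 KO label and 0.381 times under the RCC2 KO label. CDKN2A encodes an INK4 inhibitor that binds CDK4 and CDK6, but also ARF, and its FPKM does not separate them. It overlaps CDKN2A-AS1, at 0.378, 1.15 and 0.969 FPKM.

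**Figure D3:**
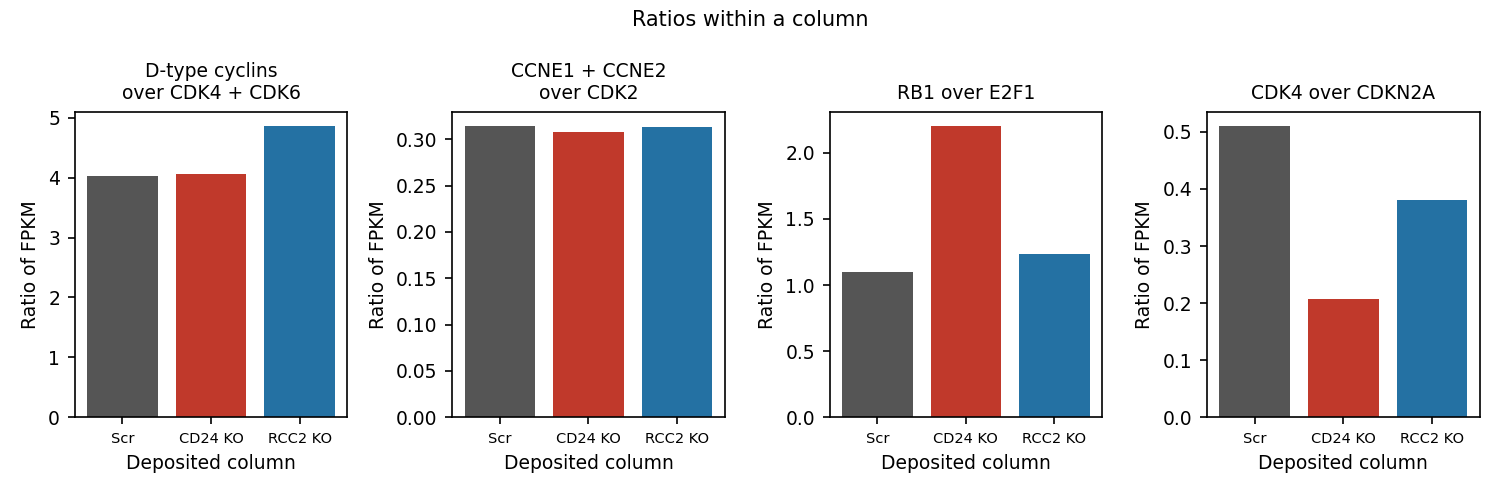
Ratios of FPKM within each deposited column, 1 bar per condition with axes from 0 and no replicate error. The cyclin to kinase ratios on the left are alike in Scr and CD24 KO, whereas RB1 over E2F1 is 2.20 under the CD24 KO label against 1.10 in Scr.

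The genes around this core were given by 7 lists of 68 genes in all, each gene above the minimum. E2F target genes of G1/S, which encode replication factors and enzymes of nucleotide synthesis, were at or beyond 2-fold lower for 16 of 26 genes under the CD24 KO label, against 3.03% of all genes, and all 26 were lower than Scr, against 52.9% of all genes. The median log2 difference was -1.08, larger than the -0.45 of the cyclins, kinases, RB1 and E2F1. RRM2, the small subunit of ribonucleotide reductase, was at 138 FPKM with Scr, 40.1 under the CD24 KO label and 141 under the RCC2 KO label, a log2 difference of -1.76 under the CD24 KO label. TK1, the thymidine kinase, was at 106, 35.7 and 94.6 FPKM. MCM3, whose promoter letters are given above, was at 110, 39.6 and 114.5 FPKM. TYMS was at 134, 55.5 and 133 FPKM, and shares its stretch of the table with ENOSF1, TYMSOS and CLUL1. In these target genes the CD24 KO column stood apart while Scr and RCC2 KO lay close together. CCNA2, the S phase cyclin, had a log2 difference of -1.11 and CDC6, the loader of the helicase, one of -1.20. CCNA2 overlaps EXOSC9, at 33.6, 19.2 and 38.5 FPKM, in the table. The other target genes past 2-fold were MCM2, MCM5, MCM7, ORC1, CDC45, GINS2, CHAF1A, UHRF1, EZH2 and FEN1, with log2 differences between -1.02 (CHAF1A) and -1.44 (MCM5). MCM7 overlaps TAF6, at 51.5, 42.0 and 41.5 FPKM, among others. PCNA, the sliding clamp, lay just short at -0.99, and SLBP, the histone mRNA binding protein, had the smallest difference at -0.23. The count of 16 was 8 with a pseudocount of 5 and 10 after rescaling each column to the same sum. All 26 genes were still lower after rescaling, whereas a pseudocount cannot turn a sign. None of the 26 genes was 2-fold changed under the RCC2 KO label, against 1.20% of all genes, 16 were higher and 10 lower, and the median was 0.022.

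Of the E2F family and its DP partners, 2 of 9 genes were at least 2-fold lower under the CD24 KO label, against 3.03% of all genes, 6 were lower in all, and the median was -0.74. The count of 2 was 4 with a pseudocount of 0.1, 1 after rescaling each column to the same sum and 0 with a pseudocount of 5. E2F4, the most abundant E2F here and a partner of the pocket proteins RBL1 and RBL2, was at 55.2 FPKM with Scr, 25.8 under the CD24 KO label and 72.3 under the RCC2 KO label, a log2 difference of -1.07. E2F8, a repressor of E2F targets, was at 9.04, 3.56 and 10.1 FPKM, with -1.14. The DP subunit gene TFDP1 was at 68.0, 36.1 and 73.4 FPKM, with -0.89 under the CD24 KO label and 1.00 under the RCC2 KO label against CD24 KO. E2F2, E2F7 and E2F3 were at -0.90, -0.74 and -0.55, and E2F5, E2F6 and TFDP2 were higher than Scr, at 0.29, 0.028 and 0.47. E2F5 overlaps C8orf59, at 28.5, 43.8 and 41.1 FPKM. E2F1 at -0.58 thus lay between these genes. None of the 9 was 2-fold changed under the RCC2 KO label, against 1.20% of all genes, and the median was 0.13. For this list and the shorter ones below, a count of 0 is near that share.

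Among pocket proteins and the MuvB core, which with E2F4 forms the DREAM repressor of cell cycle genes, 1 of 8 genes was 2-fold lower under the CD24 KO label, against 3.03% of all genes, with a median of -0.24. That gene was MYBL2, the B-MYB factor that takes the place of the pocket proteins on MuvB in dividing cells, at 58.4 FPKM with Scr, 25.9 under the CD24 KO label and 66.3 under the RCC2 KO label. After rescaling each column to the same sum MYBL2 was no longer called, 1 of the 8 genes (LIN37) was 2-fold higher, and the median was -0.049. The relatives of RB1 differed in direction. RBL1 was at 7.58, 5.96 and 9.06 FPKM, lowest under the CD24 KO label, and RBL2 at 19.9, 29.9 and 17.2 FPKM, highest there as RB1 was. RBL2 overlaps AKTIP, at 2.77, 4.47 and 2.73 FPKM. RBBP4, the histone binding subunit and in Scr the most abundant after MYBL2, was at 27.5, 23.4 and 28.3 FPKM. None of the 8 was 2-fold changed under the RCC2 KO label, against 1.20% of all genes, with a median of 0.073.

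Of the CDK inhibitors, 2 of 7 genes were at least 2-fold higher under the CD24 KO label, against 2.67% of all genes. CDKN1C, 1 of the 2, reached 1 FPKM only under that label and so had to differ. With at least 1 FPKM required in every column, 1 of 6 genes (CDKN2B) was called, 5 of 6 were higher and the median was 0.16, and with a pseudocount of 5 none was called. CDKN2B, an INK4 inhibitor, was at 5.18 FPKM with Scr, 13.8 under the CD24 KO label and 5.03 under the RCC2 KO label, and overlaps CDKN2B-AS1, at 1.34, 2.48 and 1.14 FPKM. CDKN1C was at 0.941, 2.99 and 0.244 FPKM. CDKN2A, which also encodes ARF, was the most abundant, at 81.4, 140 and 104 FPKM, with a log2 difference of 0.77 under the CD24 KO label and 0.35 under the RCC2 KO label. CDKN1A, a target of p53, was at 31.9, 29.1 and 28.4 FPKM, and CDKN1B, the inhibitor removed through SKP2, at 19.5, 20.4 and 20.5 FPKM, so CDKN1A and CDKN1B lay close together in the 3 columns, unlike CDKN1C. With a pseudocount of 0.1, 1 of the 7 was 2-fold lower under the RCC2 KO label. In the main setting none was 2-fold changed under that label, against 1.20% of all genes. The median there was -0.035, or 0.018 with at least 1 FPKM in every column, with CDKN2D and CDKN1C lowest at -0.68 and -0.64.

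Among activators of the G1 kinases, 1 of 5 genes was 2-fold lower under the CD24 KO label, against 3.03% of all genes, with a median of -0.20 that turned to 0.013 after rescaling each column to the same sum. That gene was CDC25A, the phosphatase that removes inhibitory phosphates from CDK2, at 9.77 FPKM with Scr, 2.11 under the CD24 KO label and 9.58 under the RCC2 KO label. Its log2 difference of -1.79 was the largest of the 68 listed genes. CDC37, the chaperone cofactor that CDK4 depends on, was at 182, 115 and 174 FPKM, with -0.66 under the CD24 KO label. CDK7, CCNH and MNAT1, which form the CDK-activating kinase, were at 0.43, 0.037 and -0.20, and MNAT1 was at 72.8, 63.3 and 61.2 FPKM. Under the RCC2 KO label none of the 5 was 2-fold changed, against 1.20% of all genes, with a median of -0.026.

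Of the ubiquitin ligase parts that act on G1 cyclins, 1 of 7 genes was 2-fold lower under the CD24 KO label, against 3.03% of all genes, with a median of -0.19. That gene was SKP2, at -1.19. CUL1, the scaffold of the SCF ligase, was at 57.6, 32.7 and 61.3 FPKM, with -0.80, whereas the adaptor SKP1 was at 130, 122 and 133 FPKM. FBXW7, which targets cyclin E, was at 2.85, 2.38 and 4.38 FPKM, and AMBRA1, which targets D-type cyclins, at 6.18, 5.02 and 6.02 FPKM. Under the RCC2 KO label none of the 7 was 2-fold changed, against 1.20% of all genes, with a median of 0.069. For the later cyclins, CDK1 and proliferation markers, 2 of 6 genes (CCNB1 and MKI67, at -1.21 and -1.18) were 2-fold lower under the CD24 KO label, against 3.03% of all genes, all 6 were lower and the median was -0.71. After rescaling each column to the same sum 1 of the 6 was called. TOP2A and CDK1 were at 172 and 108 FPKM in Scr, 129 and 65.1 FPKM under the CD24 KO label and 176 and 120 FPKM under the RCC2 KO label. Under the RCC2 KO label the median of these 6 genes was 0.12 and none was 2-fold changed, against 1.20% of all genes.

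Against CD24 KO, RCC2 KO was at least 2-fold higher for 18 of 26 E2F target genes, 3 of 9 E2F family and DP genes, 1 of 8 pocket protein and MuvB genes, 1 of 5 activators, 1 of 7 ligase parts and 2 of 6 later cyclins and markers, where 4.02% of all genes were. The count of 3 for the E2F family and DP genes was 5 with a pseudocount of 0.1, 2 after rescaling each column to the same sum or median centring, and 1 with a pseudocount of 5. The count of 2 for the later cyclins and markers was 1 with a pseudocount of 5, after rescaling and after quantile normalization. At least 2-fold lower were 2 of 7 CDK inhibitors (CDKN1C and CDKN2B), where 4.30% of all genes were. Without CDKN1C, which reached 1 FPKM only under the CD24 KO label, 1 of 6 was called, and of the 7 none was called with a pseudocount of 5 and 3 with one of 0.1 or after rescaling.

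**Figure D4:**
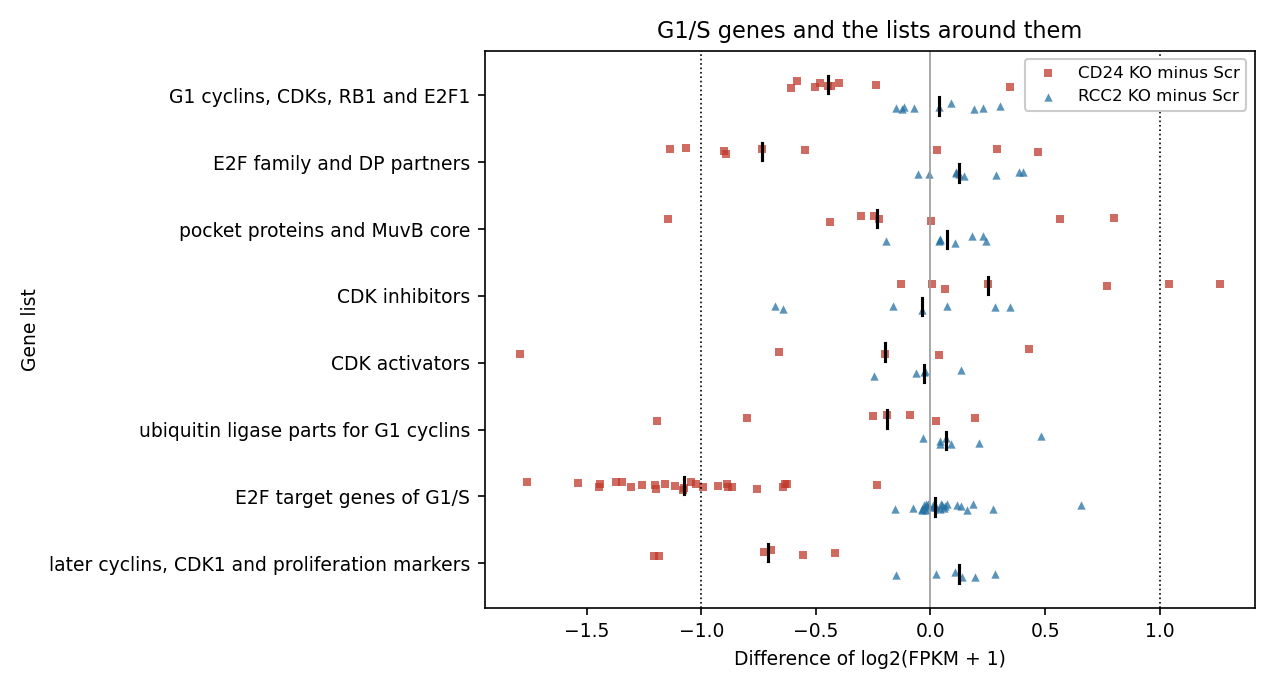
Differences of log2(FPKM + 1) against Scr for the 9 G1/S genes compared and for the 7 lists, 1 point per gene (squares CD24 KO, triangles RCC2 KO), with black bars for the medians and dotted lines for the 2-fold minimum. Under the CD24 KO label the E2F target genes have a median of -1.08 and the cyclins, kinases, RB1 and E2F1 one of -0.45. Under the RCC2 KO label the medians lie between -0.035 and 0.13.

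The position of the genes was examined through the 20 nearest genes compared, 10 on each side. Around CCND1, 18 of 20 neighbours were lower under the CD24 KO label, against 52.9% of all genes. Their median log2 difference was -0.54, close to the -0.48 of CCND1 itself. Under the RCC2 KO label the neighbours of CCND1 had a median of 0.073. The part of this stretch of chromosome 11 in the CCND1 value was not tested. Around CDK2, 15 of 20 neighbours were lower under the CD24 KO label, against the same 52.9%, with a median of -0.18. Around E2F1 and CCNE2 the medians under the CD24 KO label were 0.19 and 0.30, opposite in sign to the genes themselves, and around RB1 the median was -0.17, also opposite. The neighbours of CCND3, CDK4, CDK6 and CCNE1 had medians of 0.0083, -0.095, -0.056 and -0.023. CDK4 overlaps TSPAN31, at 4.84, 5.25 and 3.25 FPKM. The labels name a kit without strand selection and the methods a stranded one, so fragments of overlapping genes may not have been told apart.

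Genes with the pattern most like that of E2F1 and CCND1 were sought among 8840 others with a mean of at least 5 FPKM, by the Euclidean distance in the pair of log2 differences against Scr. Nearest to E2F1 were UPF2, ETS1, DOLPP1, GCFC2 and SEM1, at distances between 0.0027 and 0.011. UPF2 was at 30.6 FPKM with Scr, 20.1 under the CD24 KO label and 31.4 under the RCC2 KO label. Nearest to CCND1 were RPL26L1, HEXIM1, SETD6, ERVK3-1 and FANCI, at distances between 0.0050 and 0.011. With only 3 columns such patterns are common, and 267 genes lay within 0.1 of E2F1 and 194 genes within 0.1 of CCND1.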

How the data were processed

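RNA of 6 DU145 libraries was sequenced. The authors deposited 1 table in FPKM, already combined per condition, and the submitters' processing notes list HISAT, StringTie, Cufflinks and GATK without role or version. How the libraries were combined, the genome build and how strands were treated in counting are not given in the sources used here. The labels and the methods conflict on whether the library kit was stranded. The depth of the libraries is unknown, so no interval could be computed.

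From the deposited FPKM, genes with at least 1 FPKM in at least 1 column were compared as differences of log2(FPKM + 1). A gene was called at 2-fold. No test was possible with 1 value per condition. The members and lists were chosen with earlier results of these data known, and the lists were written from general knowledge of the pathway. Named genes were all 10 members, listed genes past 2-fold in any comparison, the 2 most abundant of each list, the targeted genes, and the 5 genes nearest in pattern to E2F1 and to the other member with the largest difference. Other listed genes named were chosen after their values were seen. Alternatives were pseudocounts of 0.1 and 5, no filter, at least 1 FPKM in every column, median centring, quantile normalization, each column rescaled to the same sum, and a 1.5-fold minimum. Values of a few listed genes and markers are not reported here. The calculation was tested on simulated data. Python 3.11.15, NumPy 2.4.6, pandas 2.3.3 and matplotlib 3.10.9 were used.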

Additional observations from a re-analysis of the deposited data

How the results depend on the processing

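No paired analysis was possible because the table holds 1 value per condition, and leaving out a replicate could not be run for the same reason. At 1.5-fold, 1 gene of the G1/S group was called in CD24 KO against Scr and 3 genes in RCC2 KO against CD24 KO, where none was called at 2-fold. No other setting called any of the 9 genes. The median of the 9 genes in CD24 KO ranged from -0.49 to -0.27 over the settings. A shift was counted from 0.2 on the log2 scale, a limit chosen after the data had been seen. After rescaling each column to the same sum, the list medians in CD24 KO were 0.013 for CDK activators and 0.47 for CDK inhibitors, and in RCC2 KO against CD24 KO -0.25 and -0.63. After quantile normalization they were 0.00072 for activators in CD24 KO and -0.63 for inhibitors in RCC2 KO against CD24 KO. With a pseudocount of 5, the E2F family and DP genes had medians of -0.41 (CD24 KO against Scr) and 0.40 (RCC2 KO against CD24 KO). The sign of the activators' median in CD24 KO thus depended on the scaling. E2F target genes called lower in CD24 KO numbered 16, but 8 with a pseudocount of 5, 10 after rescaling and 11 after quantile normalization. All 26 were lower after rescaling, quantile normalization and median centring, and another pseudocount or filter cannot turn a sign. Over all genes, 342 were called higher and 388 lower in CD24 KO, against 684 and 578 with a pseudocount of 0.1, 96 and 182 with one of 5, and 972 and 304 after rescaling. In RCC2 KO the counts were 52 and 102, against 122 and 321, 23 and 31, and 92 and 196, and 23 and 44 with at least 1 FPKM in every column. In RCC2 KO against CD24 KO they were 515 and 551, against 727 and 1123, 237 and 143, and 381 and 1493. The counts after rescaling were over 14222 genes, with the filter and pseudocount kept at 1 on larger values. The cause of these shifts was not tested.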

Other observations

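CDKN2D, an INK4 inhibitor, was at 5.996 FPKM with Scr, 7.33 under the CD24 KO label and 3.37 under the RCC2 KO label, a log2 difference of -0.68 under the RCC2 KO label, the lowest of the 7 CDK inhibitors there. The antisense PCNA-AS1 was at 3.41 FPKM in Scr and was listed at 0 in the other columns. These genes were chosen after their values had been seen, and none of the differences has a replicate check.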
